A study of Mus musculus with 6 samples.

Results

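The Hox genes are described here in the oviduct of the pregnant mouse: 38 genes of the 4 Hox clusters were listed, and a gene was taken as measured where at least 1 probe set was annotated to it and to no other gene. By that rule 33 of the 38 were measured, with 48 probe sets, among 18193 genes in all. Hoxa6, Hoxb8, Hoxc11, Hoxc12 and Hoxd4 had no probe set of their own. A further 3 probe sets named several Hox genes and were not used. Each gene was represented by its brightest probe set, and values are quantile-normalized log2 intensities. The chromosomes of the a, b, c and d clusters are 6, 11, 15 and 2. Wt1, the gene targeted in these mice, also lies on chromosome 2. Any part of alleles linked to Wt1 in the Hoxd differences was not tested.

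The samples were oviducts of MF1 females, an outbred mouse stock, that had been mated with wild-type males and were sampled at embryonic day 2.5. Of the 6 samples, 3 were Wt1 +/+ (wild type) and 3 were Wt1 ko/+ (heterozygous), with 1 array each. The targeted gene, Wt1, codes for a transcription factor with zinc fingers, and the groups show oviductal transcripts with and without the loss of 1 allele. The labels neither describe the ko allele nor tell if a sample was 1 animal or a pool. Errors and p-values therefore reflect how much these arrays varied, and some of that variation may be technical.

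Hox genes encode homeodomain transcription factors that give cells their position along the body axis. Within a cluster they are ordered so that genes of low paralogue number act in the head and neck and those of high number act in the lower trunk, and neighbours in a cluster are often transcribed together. In the female reproductive tract the posterior genes are laid out along the duct: Hoxa9 marks the oviduct, Hoxa10 the uterus, Hoxa11 the uterus and cervix, and Hoxa13 the cervix and upper vagina.

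Facts of all arrays bear on these values as follows. Median deposited intensity was 151.6 to 167.8. Of the 10 oviduct epithelium markers 10 lay above the median of all probe sets, as did 6 of 6 stroma and 8 of 8 smooth muscle markers, against 1 of 7 for vagina and cervix epithelium and 6 of 8 for uterus. The Actb 3' to 5' ratio, a measure of RNA quality, reached 5.90 in wild-type replicate 3 and lay between 1.67 and 2.49 elsewhere. Wt1 itself read 12.17, 12.06 and 11.67 in wild type and 11.12, 11.27 and 11.79 in heterozygotes. The genotypes overlapped for Wt1, since heterozygous replicate 3 lay above wild-type replicate 3, and the difference of -0.57 had an adjusted p of 0.771 in limma.

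Bright Hox signal in the oviduct came from the anterior and central parts of the clusters and from paralogue group 9. Over the 6 arrays, 17 of the 33 genes had a mean over 7.31, the median of all probe sets, against 64.4% of all genes. Of the genes of groups 1 to 3, here called anterior, 5 of 7 lay above it, and of the central groups 4 to 8, 9 of 12. Of the posterior groups 9 to 13, 3 of 14 lay above it, namely Hoxa9, Hoxc9 and Hoxd9. The 10 measured genes of groups 10 to 13 had means of 1.62 to 7.27, with a median of 5.60, and 0 of them lay above the line. Probe sets differ in how strongly they bind, so these counts rank no gene's transcript against another's, and no detection calls were used. Nearest to the line were Hoxd3 at 7.33 and Hoxa10 at 7.27.

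**Figure D1:**
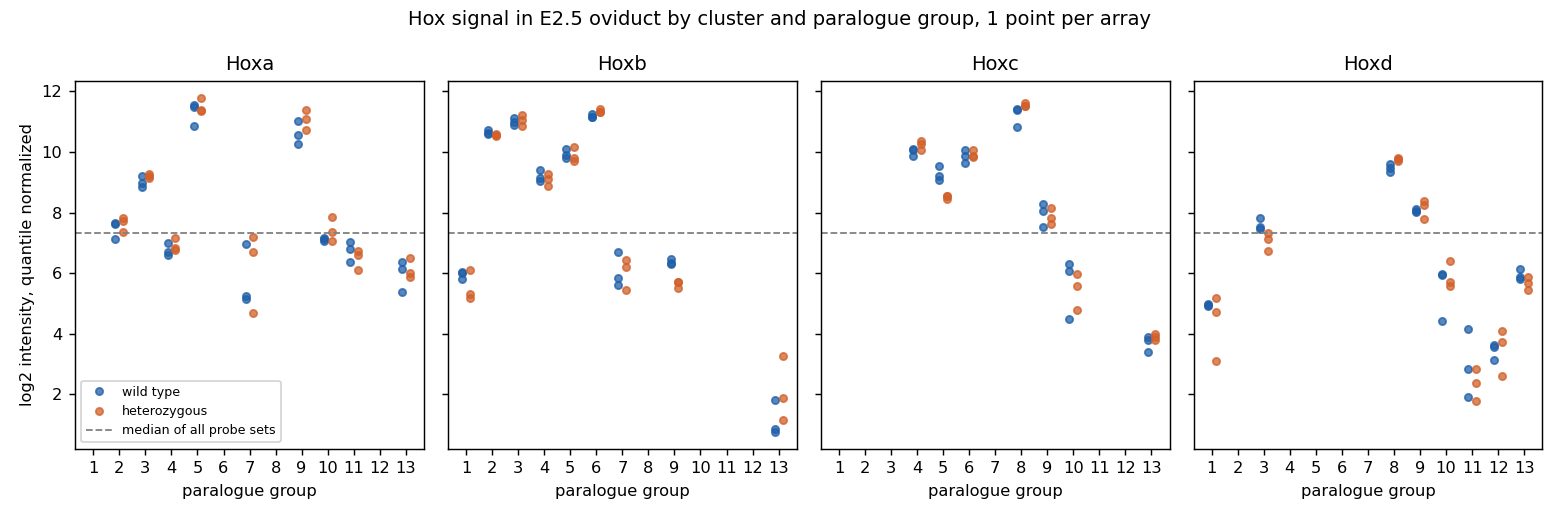
Quantile-normalized log2 intensity (vertical axis) of each measured Hox gene by paralogue group (horizontal axis), in 1 panel per cluster, with 1 point per array for the 3 wild-type and 3 heterozygous arrays. The dashed line is the median of all probe sets, 7.31; the 10 genes of groups 10 to 13 had means of 7.27 or lower.

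By cluster, 4 of 9 Hoxa, 5 of 9 Hoxb, 5 of 7 Hoxc and 3 of 8 Hoxd genes lay above the line. The bright genes were not evenly spread along a cluster. Hoxa4 lay below the line between Hoxa3 and Hoxa5, which lay above it, as did Hoxa7 between Hoxa5 and Hoxa9, and Hoxb7 lay below it beside Hoxb6. Both measured genes of group 1, Hoxb1 and Hoxd1, and both of group 7 lay below it.

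Between genotypes, 0 of the 33 Hox genes passed the threshold of an adjusted p under 0.05 in limma, where 0.0165% of all genes did, 3 of 18193. By probe set the count was 0 of 48, against 0.00666% of all probe sets. Adjusted p in limma ranged from 0.409 for Hoxb9 to 0.995 over the 33 genes. At an unadjusted p under 0.05 there were 3 Hox genes, Hoxb9, Hoxc5 and Hoxd3, all lower in heterozygotes; that is 9.09% of the Hox genes, against 6.44% of all genes in either direction, 3.77% lower and 2.67% higher. The 3 values of a genotype lay wholly apart from those of the other for 7 of the 33 genes, 21.2%, against 11.8% of all genes. Of these, 4 were lower in heterozygotes, where 6.77% of all genes were, and 3 were higher, where 5.0% were. With 3 arrays against 3, an exact two-sided permutation test of a single gene cannot give a p below 0.1.

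The differences went both ways. In heterozygotes 19 of the 33 genes had the higher mean and 14 the lower, with a median log2 difference of 0.07, while over all genes 45.0% had the higher mean and the median was -0.03. The median was -0.09 for anterior, 0.16 for central and 0.06 for posterior genes. By cluster it was 0.19 for Hoxa, with 8 of 9 genes higher, -0.04 for Hoxb with 3 of 9 higher, 0.07 for Hoxc with 4 of 7 higher and -0.13 for Hoxd with 4 of 8 higher. The median over all Hox genes turned to -0.04 without wild-type replicate 1, was 0.02 without heterozygous replicate 1 and at most 0.10 without any other array. Whole oviduct was measured, so fewer cells of a type and less RNA per cell cannot be told apart in any of these differences.

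**Figure D2:**
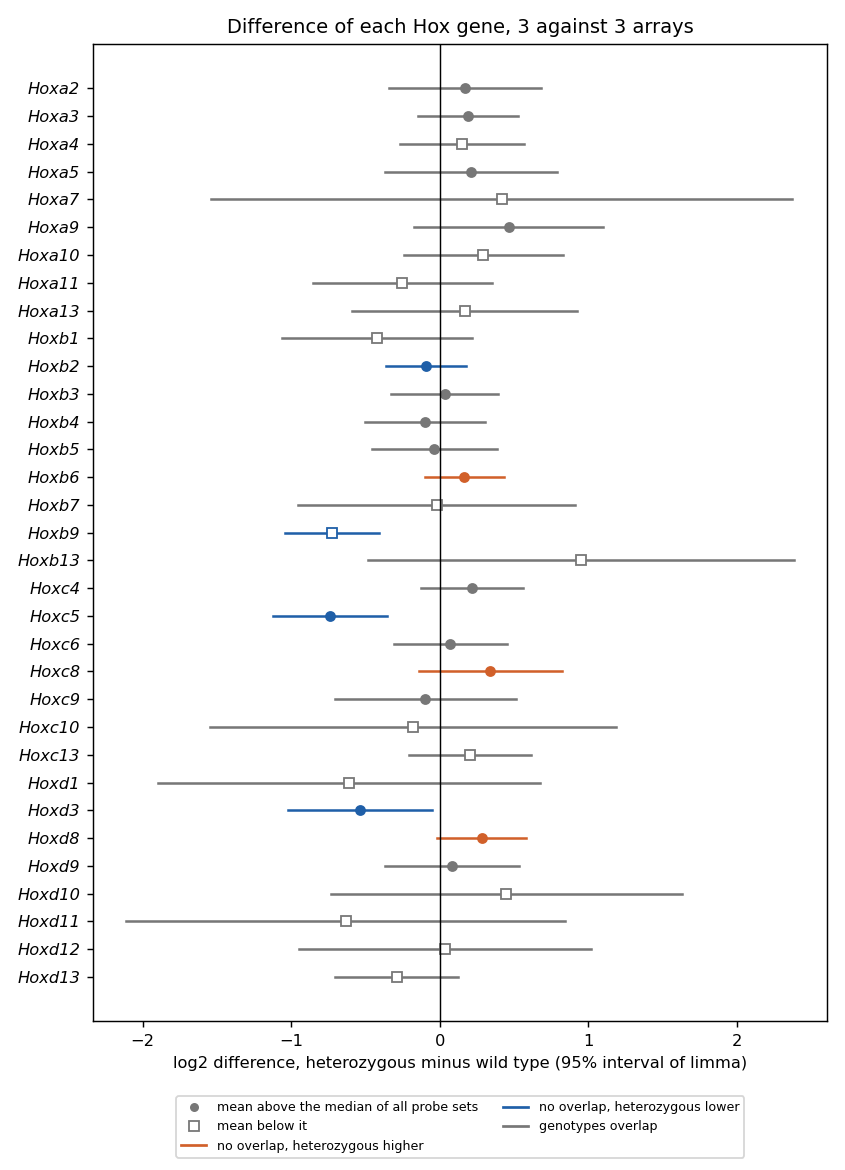
Log2 difference, heterozygous minus wild type (horizontal axis), with the 95% interval of limma for each of the 33 Hox genes (vertical axis), 3 arrays against 3. Filled circles are genes with a mean over 7.31 and open squares the dimmer ones; blue marks the 4 genes lower without overlap and orange the 3 higher without overlap.

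Among anterior genes, which pattern the hindbrain and neck in the embryo, Hoxd3 and Hoxb2 were the ones without overlap. Hoxd3, known for shaping the uppermost vertebrae, read 7.53, 7.81 and 7.45 in wild type, in replicate order as throughout, and 7.13, 6.73 and 7.32 in heterozygotes. Every heterozygous array lay below every wild-type array, though heterozygous replicate 3 came close. The means were 7.60 ± 0.19 and 7.06 ± 0.30 (SD, n = 3), 1.45-fold lower in heterozygotes, with a log2 difference of -0.54 (SE 0.20) and an adjusted p of 0.738 in limma. On leaving out 1 array the difference ran from -0.67, without heterozygous replicate 3, to -0.37, without heterozygous replicate 2.

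Hoxb2, a hindbrain segment gene, read 10.60, 10.72 and 10.62 in wild type and 10.56, 10.51 and 10.60 in heterozygotes. It too was lower without overlap, but by 0.09 on the log2 scale (SE 0.11), and its nearest arrays were almost level. Hoxb3, its neighbour, read 10.90, 10.999 and 11.12 against 11.06, 10.84 and 11.22, and the genotypes overlapped with a difference of 0.03. Hoxa2, which patterns the second pharyngeal arch, read 7.66, 7.11 and 7.61 against 7.71, 7.82 and 7.36, a difference of 0.17 (SE 0.21). Hoxa3, needed for the thymus and parathyroid, read 9.20, 8.85 and 8.98 against 9.14, 9.27 and 9.19, a difference of 0.19 (SE 0.14). For both Hoxa genes the lowest array was wild-type replicate 2 and the highest heterozygous replicate 2.

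Central genes, which act in the neck and thorax of the embryo, gave the 3 genes that were higher without overlap. Hoxb6 read 11.15, 11.16 and 11.23 in wild type and 11.31, 11.41 and 11.32 in heterozygotes. Its arrays were tight within each genotype, at 11.18 ± 0.04 and 11.35 ± 0.06 (SD, n = 3), and its difference was 0.16 (SE 0.11), with an adjusted p of 0.882 in limma. Hoxd8 read 9.60, 9.46 and 9.34 against 9.76, 9.80 and 9.69, means of 9.47 ± 0.13 and 9.75 ± 0.05 (SD, n = 3). The difference for Hoxd8 was 0.28 (SE 0.12), with an adjusted p of 0.803 in limma.

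Hoxc8, a thoracic patterning gene, read 11.43, 10.81 and 11.39 in wild type and 11.51, 11.53 and 11.61 in heterozygotes. Wild-type replicate 2 stood well below the other 5 arrays, which lay within a narrow band. The means were 11.21 ± 0.35 and 11.55 ± 0.05 (SD, n = 3), a difference of 0.34 (SE 0.20) with an adjusted p of 0.858 in limma, and without wild-type replicate 2 the difference was 0.14. With array weights it was 0.57.

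Hoxc5, a gene of the neck and upper thorax, differed the other way. It read 9.19, 9.06 and 9.53 in wild type and 8.54, 8.46 and 8.55 in heterozygotes. The heterozygous arrays sat close together and all lay well below wild type, at 8.52 ± 0.05 against 9.26 ± 0.24 (SD, n = 3), 1.67-fold lower. The log2 difference was -0.74 (SE 0.16), with a 95% interval of -1.12 to -0.36 and an adjusted p of 0.503 in limma. Its other probe sets, both dim, gave 1.01 (SE 1.16) and -0.23 (SE 0.85) with overlapping genotypes, and the mean of the 3 probe sets gave 0.01. The lower Hoxc5 signal was thus seen in 1 of its 3 probe sets.

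Its cluster neighbours overlapped between genotypes. Hoxc4 read 10.07, 10.11 and 9.86 in wild type and 10.26, 10.07 and 10.36 in heterozygotes, a difference of 0.22 (SE 0.14). Hoxc6, also a marker of the thorax and mammary gland, read 9.63, 9.87 and 10.06 against 9.84, 10.06 and 9.88, a difference of 0.07. That probe set is of a cross-hybridizing type. The other probe sets of Hoxc6 gave 0.23 and, in a dim one, 0.19, each with overlap. Hoxc4 and Hoxc6 had the higher mean in heterozygotes, where Hoxc5 had the lower, and these differences between genes were not tested. Transcripts of neighbouring Hox genes can overlap, and whether these probe sets tell such transcripts apart was not tested.

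The remaining bright central genes overlapped between genotypes. Hoxa5, needed for the lung and diaphragm, read 11.55, 10.86 and 11.47 in wild type and 11.36, 11.78 and 11.37 in heterozygotes, a difference of 0.21 (SE 0.24) that ran from -0.0044 without wild-type replicate 2 to 0.34 without wild-type replicate 1, and was 0.53 with array weights. A second bright probe set of Hoxa5 gave -0.02. Hoxb4, known from blood stem cells, read 9.05, 9.41 and 9.12 against 9.28, 9.12 and 8.89, a difference of -0.10. Hoxb5, known from the enteric nervous system, read 9.79, 9.88 and 10.09 against 10.16, 9.71 and 9.79, a difference of -0.04. Each of these differences was smaller than the range of the 3 arrays within either genotype.

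Posterior genes gave 1 separation, in a dim gene. Hoxb9, which acts in the thorax and mammary gland, read 6.48, 6.29 and 6.35 in wild type and 5.50, 5.72 and 5.73 in heterozygotes. No heterozygous array reached the lowest wild-type array, and the spread within each genotype was small. The means were 6.37 ± 0.10 and 5.65 ± 0.13 (SD, n = 3), 1.65-fold lower in heterozygotes. The log2 difference was -0.72 (SE 0.13), with a 95% interval of -1.04 to -0.41 and the smallest adjusted p of the Hox genes, 0.409 in limma. With the trend and robust options in limma the adjusted p was 0.641 for Hoxb9 and 0.228 for Hoxc5. The signal of Hoxb9 lay under 7.31, the line used for brightness, in every array.

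Hoxa9, the oviduct gene of the posterior series, had signal far above the line in every array. It read 11.01, 10.25 and 10.56 in wild type and 10.73, 11.39 and 11.09 in heterozygotes, 10.61 ± 0.38 against 11.07 ± 0.33 (SD, n = 3). The genotypes overlapped: wild-type replicate 1 lay above heterozygous replicate 1. The difference was 0.47 (SE 0.26, 95% interval -0.17 to 1.10), with an adjusted p of 0.850 in limma, and was 0.29 without wild-type replicate 2, 0.31 without heterozygous replicate 2, 0.63 without heterozygous replicate 1 and 0.66 without wild-type replicate 1. With array weights it was 0.74, and with the classes of the Actb ratio as a block it was 0.28. A second bright probe set of Hoxa9 gave 0.39.

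Hoxc9 and Hoxd9, its paralogues, overlapped between genotypes as well. Hoxc9, which specifies thoracic motor neurons, read 8.05, 7.52 and 8.30 in wild type and 7.63, 7.81 and 8.14 in heterozygotes, a difference of -0.10. Hoxd9, a gene of the lower spine and limb, read 8.12, 8.05 and 8.02 against 8.26, 8.39 and 7.79, a difference of 0.08.

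The genes of the lower tract were dim. Hoxa10, a uterine gene needed for implantation, read 7.17, 7.06 and 7.14 in wild type and 7.35, 7.84 and 7.05 in heterozygotes, so the heterozygous arrays spanned the wild-type ones. The difference was 0.29 (95% interval -0.24 to 0.83), and its other probe set gave -0.14. Hoxa11 read 6.36, 7.04 and 6.78 against 6.11, 6.61 and 6.72, a difference of -0.25 (95% interval -0.86 to 0.35). Hoxa13 differed by 0.17. The genotypes overlapped for all 3 genes, and each 95% interval spans 0. Hoxb13, a gene of the prostate and tail, had deposited intensities of 1.6 to 9.4, and its difference of 0.95 was the largest positive one among the Hox genes, with an SE of 0.58.

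Other dim members also overlapped. Hoxb1 (-0.42) and Hoxd1 (-0.61), of the hindbrain group 1, had lower means, as did Hoxc10 (-0.18), Hoxd11 (-0.63), Hoxd13 (-0.29) and Hoxb7 (-0.02). Hoxa4 (0.15), Hoxa7 (0.42), Hoxc13 (0.21), Hoxd10 (0.45) and Hoxd12 (0.04) had higher means; these values are log2 differences. The median SD within a genotype was 0.49 for the 16 genes below the line and 0.19 for the 17 above it. The median absolute difference was 0.29 and 0.17, so the dim genes' larger differences came with larger errors.

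**Figure D3:**
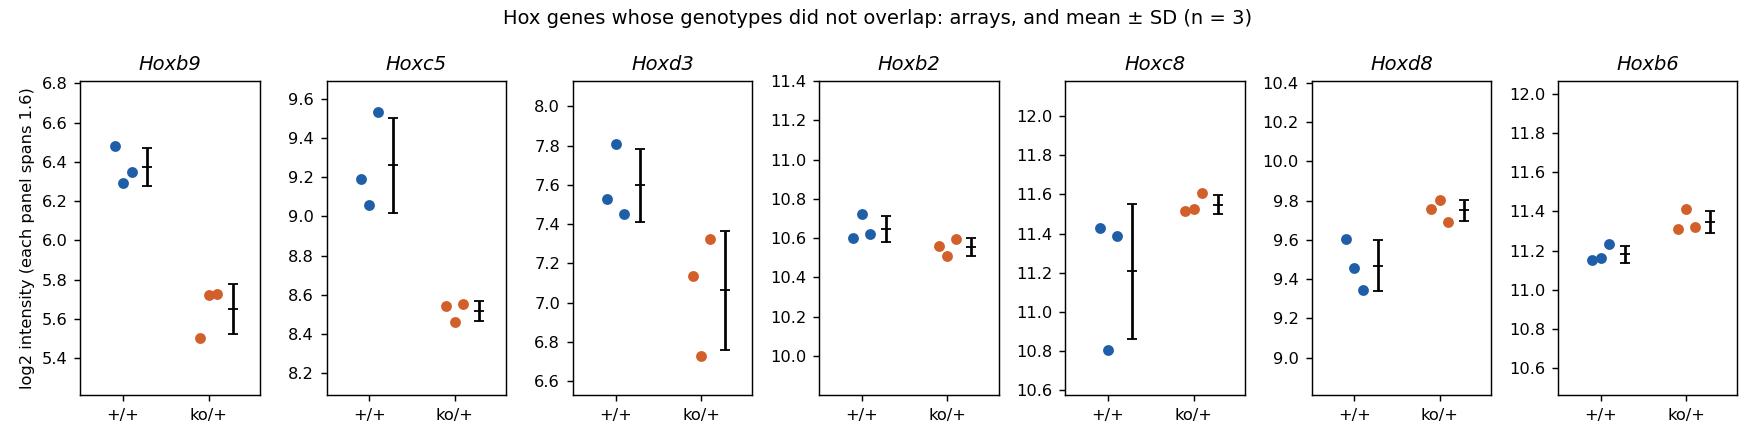
Log2 intensity (vertical axis) in the 3 wild-type (+/+) and 3 heterozygous (ko/+) arrays for the 7 Hox genes whose genotypes did not overlap, with the mean and SD (n = 3) beside the points. Each panel spans 1.6 on the log2 scale; Hoxb9, Hoxc5, Hoxd3 and Hoxb2 were lower and Hoxc8, Hoxd8 and Hoxb6 higher in heterozygotes.

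The RNA quality ratio overlapped between genotypes, and the difference was also taken within 2 classes of 3 arrays, those with lower and those with higher Actb ratios. In these it was -0.76 and -0.82 for Hoxb9, -0.68 and -0.75 for Hoxc5, and -0.50 and -0.50 for Hoxd3. It was -0.05 and -0.11 for Hoxb2, 0.14 and 0.36 for Hoxd8, 0.14 and 0.42 for Hoxc8, and 0.21 and 0.11 for Hoxb6. Each class set 1 array of one genotype against 2 of the other, and because these 7 genes were chosen for not overlapping, the signs within a class were fixed by that choice.

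Of the 11 genes with several probe sets, 10 of the 15 further probe sets had the sign of the brightest and 5 the opposite one. Hoxa3 showed the largest gap among bright probe sets, at 0.58 without overlap for the second against 0.19 for the brightest. For Hoxd8 the second probe set, also bright, gave 0.16, in the direction of the first. Its genotypes overlapped, so the separation of Hoxd8 was seen only in the brightest probe set.

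**Figure D4:**
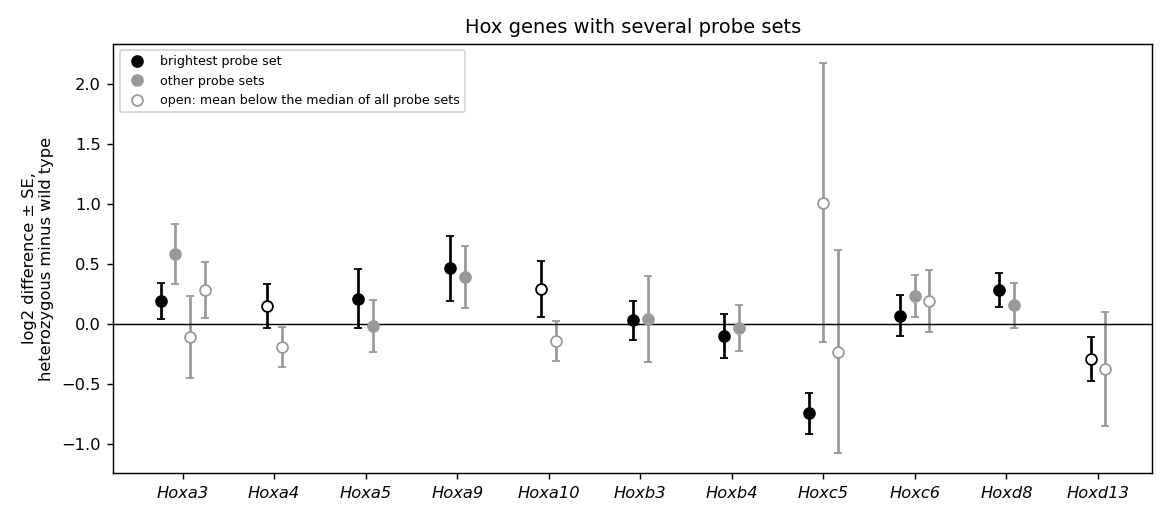
Log2 difference, heterozygous minus wild type, with the SE of limma (vertical axis) for every probe set of the 11 Hox genes with several (horizontal axis). Black is the brightest probe set and grey the others, and open symbols have a mean under 7.31; the 3 probe sets of Hoxc5 ranged from -0.74 to 1.01.

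The 4 bright Hoxa genes had their extremes in the same arrays. By their brightest probe sets, Hoxa2, Hoxa3, Hoxa5 and Hoxa9 were each lowest in wild-type replicate 2 and highest in heterozygous replicate 2. That was a pattern of 2.91% of all genes, 529 of 18193. The bright second probe sets of Hoxa3 and Hoxa9 had the same extremes. That of Hoxa5 was also lowest in wild-type replicate 2, at 9.88. It was highest in wild-type replicate 3, at 10.57, against 10.29 in heterozygous replicate 2. The count of higher Hoxa genes, 8 of 9, was 6 without wild-type replicate 2 and 7 without heterozygous replicate 2, and the Hoxa median, 0.19 in all arrays, was 0.11 and 0.08. Without any other array the count was 7 or 8 and the median 0.17 to 0.29, and with array weights they were 7 and 0.42. These 4 genes were picked out after their values were seen, and as neighbours in a cluster they are not independent.

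Markers of stroma and smooth muscle were also high in heterozygous replicate 2. All 6 stroma markers had a higher mean in heterozygotes, with a median difference of 0.30, and 4 of the 6 were highest in heterozygous replicate 2, as were 2184 of all 18193 genes. Their summed intensity was 30288 to 33166 in wild type and 31388 to 37791 in heterozygotes. All 8 smooth muscle markers had a higher mean, with a median of 0.56, and 8 of 8 were highest in heterozygous replicate 2. Their summed intensity was 28277 to 35935 in wild type and 32389 to 45705 in heterozygotes. In wild-type replicate 2 the markers were less uniform, with 2 of 6 and 2 of 8 lowest there, as were 2429 of all 18193 genes. Of the 6 stroma and 8 smooth muscle markers 0 passed the threshold in limma. At an unadjusted p under 0.05 there were 1 and 3, against 6.44% of all genes. Without overlap 1 of the 6 and 5 of the 8 were higher, where 5.0% of all genes were, and 0 of either list were lower. Of the fat markers 2 of 5 lay above 7.31. Their summed intensity was 232 to 311 in wild type and 624 to 1328 in heterozygotes, without overlap. Singly, 3 of the 5 were higher without overlap and 0 were lower. In limma 3 had an unadjusted p under 0.05 and 0 passed the threshold. Uterus markers went both ways: 5 of 8 had a higher and 3 a lower mean in heterozygotes. Their differences ran from -1.22 to 2.50, with a median of 0.17, and 0 passed the threshold in limma. Without overlap 4 of 8 were higher, where 5.0% of all genes were, and 0 were lower. Their summed intensity was 22041 to 26448 in wild type and 26588 to 28407 in heterozygotes, also without overlap. Cxcl15, a uterine gland chemokine, read 7.45, 8.08 and 7.63 in wild type and 10.16, 10.13 and 10.37 in heterozygotes, a difference of 2.50 with an adjusted p of 0.0620 in limma. The part of these 4 marker lists in the Hox differences was not tested.

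**Figure D5:**
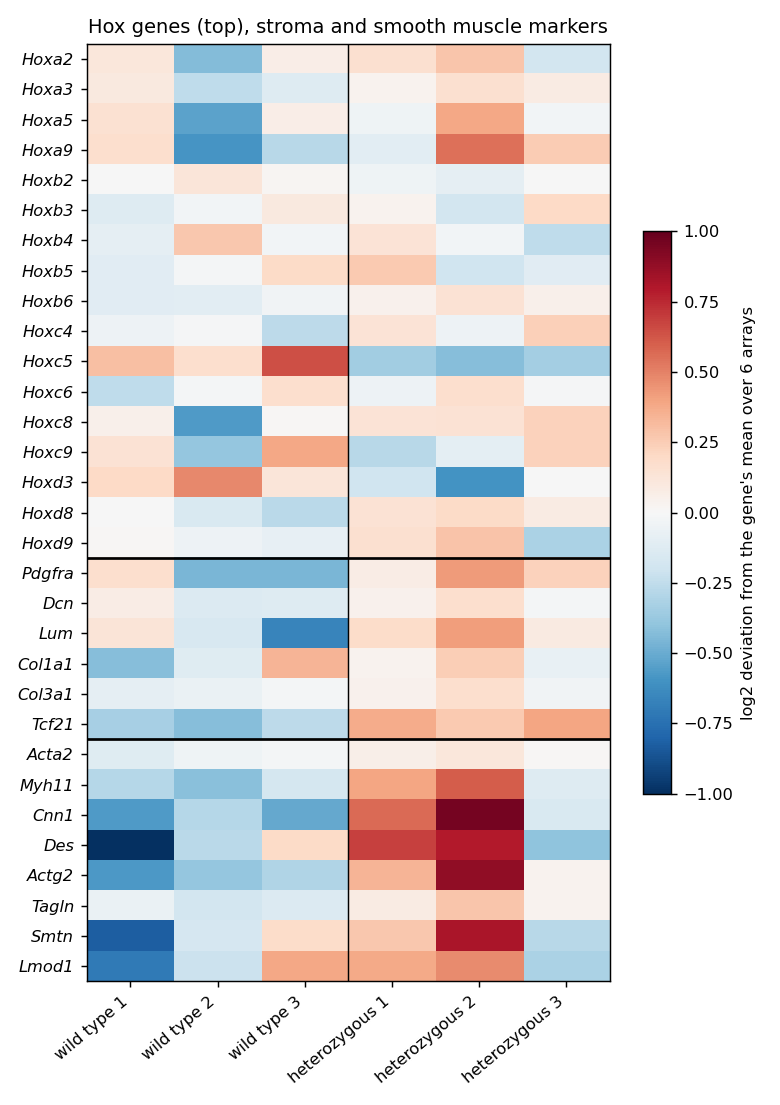
Log2 deviation from each gene's mean over 6 arrays (colour scale, cut at -1 and 1) for the 17 bright Hox genes, 6 stroma markers and 8 smooth muscle markers (rows) in each array (columns). Each gene is shown by its brightest probe set. Hoxa2, Hoxa3, Hoxa5 and Hoxa9 are lowest in wild-type replicate 2 and highest in heterozygous replicate 2, where all 8 smooth muscle markers are also highest.

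Upstream sequences are shown for these 4 Hoxa genes because of that shared pattern, and for Hoxd3 and Hoxd8 because their genotypes did not overlap. Each is the 250 bases before the annotated start in RefSeq, build GRCm38.p6, written 5′ to 3′ on the gene's strand. Capitals mark matches to the motifs searched.
Hoxa2, chr6:52164832-52165081, minus strand: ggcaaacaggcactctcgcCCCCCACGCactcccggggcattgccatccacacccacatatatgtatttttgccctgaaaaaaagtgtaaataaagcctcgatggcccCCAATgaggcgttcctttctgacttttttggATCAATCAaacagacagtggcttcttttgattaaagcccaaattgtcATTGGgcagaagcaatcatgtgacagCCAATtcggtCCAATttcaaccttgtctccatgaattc
Hoxa3, chr6:52213068-52213317, minus strand: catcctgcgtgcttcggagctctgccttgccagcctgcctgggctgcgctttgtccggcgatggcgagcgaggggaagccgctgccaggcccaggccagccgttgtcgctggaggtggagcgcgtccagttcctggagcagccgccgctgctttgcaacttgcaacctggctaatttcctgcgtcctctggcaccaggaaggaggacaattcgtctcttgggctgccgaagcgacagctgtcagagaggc
Hoxa5, chr6:52204588-52204837, minus strand: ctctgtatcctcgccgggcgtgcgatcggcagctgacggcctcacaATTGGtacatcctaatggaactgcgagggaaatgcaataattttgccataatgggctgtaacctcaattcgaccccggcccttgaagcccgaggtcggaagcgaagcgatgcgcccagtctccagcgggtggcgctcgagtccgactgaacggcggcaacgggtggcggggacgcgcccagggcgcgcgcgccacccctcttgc
Hoxa9, chr6:52227371-52227620, minus strand: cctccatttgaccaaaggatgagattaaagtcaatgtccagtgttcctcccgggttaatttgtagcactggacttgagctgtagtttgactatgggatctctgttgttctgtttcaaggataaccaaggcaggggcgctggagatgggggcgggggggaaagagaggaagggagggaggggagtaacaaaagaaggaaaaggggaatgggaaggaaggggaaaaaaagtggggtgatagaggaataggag
Hoxd3, chr2:74711743-74711992, plus strand: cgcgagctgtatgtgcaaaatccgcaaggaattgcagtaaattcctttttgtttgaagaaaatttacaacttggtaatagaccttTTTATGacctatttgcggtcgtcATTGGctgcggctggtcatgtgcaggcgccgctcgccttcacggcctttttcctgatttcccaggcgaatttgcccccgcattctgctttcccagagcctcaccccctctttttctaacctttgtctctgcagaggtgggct
Hoxd8, chr2:74704365-74704614, plus strand: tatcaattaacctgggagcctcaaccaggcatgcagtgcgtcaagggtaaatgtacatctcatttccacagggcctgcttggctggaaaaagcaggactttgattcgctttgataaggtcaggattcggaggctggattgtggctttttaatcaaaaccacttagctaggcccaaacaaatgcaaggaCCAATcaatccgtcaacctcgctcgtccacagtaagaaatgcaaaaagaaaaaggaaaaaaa

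The table held windows for 22 of the 38 Hox genes, 24 in all, and Hoxb9, Hoxc5, Hoxc8, Hoxb2 and Hoxb6 were not among them. The motifs were searched on both strands. GCGTGGGNG, a WT1-type motif, was in 1 Hox window, that of Hoxa2, and in 1.65% of all 32851 windows. GCGGGGGCG, the related EGR1 motif, was in 1, that of Hoxb8, and in 2.57% of all. TGATTNAT, a PBX-HOX motif, was in the windows of Hoxa2 and Hoxd11 and in 2.82% of all. TTTATG, a CDX motif, was in 5 Hox windows, Hoxd3 among them, and in 10.8% of all, and CCAAT was in 14 and in 33.8% of all. Hoxa3 and Hoxa9 held none of the 5. The only Hoxa3 window lay upstream of the Hoxa5 and Hoxa6 windows, and no other start of Hoxa3 was searched. Of the 4 bright Hoxa genes, Hoxa2 and Hoxa5 had a CCAAT match, and none of the other 4 motifs was shared among them. A match describes letters in the window and shows no binding. The median GC content was 58.6% in Hox windows and 52.4% in all.

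Partners and regulators of Hox genes were read from lists. TALE homeodomain proteins of the PBX, MEIS and PREP families bind DNA together with Hox proteins. Of 9 listed, 8 were measured, 3 with a higher and 5 with a lower mean in heterozygotes, with a median difference of -0.10, and 0 passed the threshold in limma or had an unadjusted p under 0.05. Meis1 read 11.44, 11.30 and 11.42 in wild type and 11.56, 11.75 and 11.50 in heterozygotes, higher without overlap by 0.22. Pbx3 read 10.01, 10.04 and 10.46 against 9.997, 9.73 and 9.87, lower without overlap, a difference of -0.31. Pbx2 (-0.25) and Pknox2 (-0.14) overlapped.

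Regulators of the clusters include CDX factors, retinoic acid enzymes and receptors, and the Polycomb and Trithorax groups that silence and maintain Hox chromatin. Of 36 listed, 35 were measured, 12 higher and 23 lower, with a median of -0.09. In limma 0 passed the threshold and 2 of the 35 had an unadjusted p under 0.05, against 6.44% of all genes. These were Aldh1a3 and the dim Cdx4. Without overlap 1 was higher and 5 were lower in heterozygotes, against 5.0% and 6.77% of all genes. Aldh1a3, a retinoic acid synthesis enzyme, read 8.12, 7.96 and 7.80 in wild type and 8.47, 8.28 and 8.29 in heterozygotes. All heterozygous arrays lay above wild type, with a difference of 0.39 (SE 0.14) and an adjusted p of 0.717 in limma. Kat6a, a histone acetyltransferase that sustains Hox expression, was lower without overlap, with a difference of -0.36, as was the cyclin gene Ccnd1, at -0.23. Cbx8, a Polycomb subunit, overlapped, at -0.32.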

How the data were processed

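Biotinylated cRNA from 1 µg of total RNA of each oviduct sample was hybridised to a 1-colour 3' expression array. For each probe set the authors deposited a linear intensity in every array. Which program summarised the probes was not given in the sources used. The 2% trimmed mean of the deposited intensity averaged 500.002 over the 6 arrays. As an average, it does not show that each array was scaled to the same mean. Of 45101 probe sets, 64 controls were left out. Intensities were floored at 1, log2 transformed and quantile normalized, because array log2 medians differed by 0.147. Gene names came from the platform annotation: 34945 probe sets had 1 symbol, 932 several and 9160 none. Entrez identifiers of 34741 matched RefSeq, and 0 symbols changed. The brightest probe set represented each of 18193 genes.

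Differences, heterozygous minus wild type, were fitted over all genes and over all probe sets with limma 3.58.1 (lmFit, eBayes) under R 4.3.3. Tests were two-sided, p-values were adjusted by Benjamini-Hochberg, and the threshold was 0.05. SEs are those of limma and SDs are over 3 arrays, whose number limits the precision. Scripts were tested on simulated data.

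The Hox genes, lists, tests and naming rule were chosen with earlier results of these data known. Array values are given for Hox genes brighter on average than the median probe set, and for those without overlap or with an unadjusted p under 0.05; from each other list at most 4 genes above that median, with the smallest p, are named. Hoxa10 and Hoxa11 were added for their role in the tract. Alternatives tried were the scaling as deposited, a dim filter (no probe set under the median), trend and robust options in eBayes, array weights, a replicate block, leaving out each array, the Actb ratio as covariate or block, averaging the probe sets of a gene, log2 after adding 16 to the intensity, and leaving out cross-hybridizing probe sets. The Hoxa count and median were added to these after the data were seen.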

Additional observations from a re-analysis of the deposited data

How the results depend on the processing

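Under each of 16 alternatives 0 Hox genes passed the threshold in limma, and the lowest adjusted p was 0.176, for Hoxb9 with array weights. Over all genes the count was 3 as reported, 7 with array weights, 2 with log2 of the intensity plus 16, 1 with the dim filter or with trend and robust, and 0 with the replicate block, without any 1 array, with the Actb ratio as covariate or block, and without cross-hybridizing probe sets. Samples of equal replicate number did not deviate alike: correlations of deviations were -0.16, -0.02 and -0.09. Of 6 samples, 0 correlated best with their own number. These correlations cannot exclude that equal numbers were handled together. With the replicate block 0 Hox genes passed and the median Hox difference was 0.07.

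The median Hox difference was 0.14 with the Actb covariate and ran from -0.040 to 0.10 on leaving out 1 array. The Hoxa median was 0.42 with array weights, and the 4 Hoxa genes left by the dim filter were all higher. Of 18 Hox genes with values in every array that met the naming rule, 9 kept their sign under every alternative run and 9 did not; for genes without overlap the sign on leaving out 1 array is fixed by that choice. Reversals were -0.0063 for Hoxb3 and 0.14 for Hoxc9 with array weights, 0.11 and 0.067 for Hoxb5 with the Actb ratio as covariate and as block, and 0.012 for Hoxc5 with the mean of its probe sets. On leaving out 1 array the difference ran from -0.058 to 0.13 for Hoxb3, -0.040 to 0.17 for Hoxc6, -0.0045 to 0.31 for Hoxa2, -0.0044 to 0.34 for Hoxa5, -0.19 to 0.0095 for Hoxb4, -0.17 to 0.055 for Hoxb5, -0.32 to 0.073 for Hoxc9 and -0.041 to 0.26 for Hoxd9. The causes of these reversals were not tested. Hoxb9 was left out by the dim filter. Whether dim probe sets lay above background is unknown.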

Other observations

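Genes of the genital tract reported downstream of or beside posterior Hox genes went both ways. Of 22 listed, 21 were measured, 11 with a higher and 10 with a lower mean in heterozygotes, with a median log2 difference of 0.01. In limma 0 passed the threshold, and 1 of the 21, the dim Dach2, had an unadjusted p under 0.05. An unadjusted p under 0.05 was met by 6.44% of all genes. Hand2, a stromal factor of the progesterone response, read 9.19, 8.69 and 9.19 in wild type and 9.37, 9.56 and 9.33 in heterozygotes. It was higher without overlap by 0.40 (SE 0.18), with an adjusted p of 0.809 in limma. Dach1, a transcriptional cofactor, differed by 0.31, Fkbp5, a steroid receptor co-chaperone, by 0.28 and Pax8, a factor of the Müllerian epithelium, by -0.31, each with overlap.

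Neighbours of the clusters and their non-coding RNAs were mostly unmeasured, at 9 of 24 listed, 3 higher and 6 lower, with a median of -0.09, and 0 passed the threshold in limma or had an unadjusted p under 0.05. Hoxb5os, which is antisense to Hoxb5, read 10.55, 10.10 and 10.34 in wild type and 10.21, 9.70 and 10.13 in heterozygotes, a difference of -0.32 with overlap.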
